A study of Homo sapiens with 18 samples.

Results

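Aminoacyl-tRNA synthetases join each amino acid to its transfer RNA, the step that sets which amino acid a codon is read as. The cytosol and the mitochondrion carry out this step with separate sets of enzymes, and nearly all of the mitochondrial enzymes are encoded by nuclear genes of their own. In the cytosol, several synthetases are held together with scaffold proteins in a large multisynthetase complex, while the others act free of it. Messenger RNA of 36 such genes was measured here. They were found by symbol in the count tables, under the older names used there, among 26485 genes in all. Of the 36, 20 were counted as cytosolic and 16, whose symbols end in 2, as mitochondrial. The cytosolic group includes GARS, KARS and QARS, which the selection treats as dual or shared. GARS and KARS are known to make the enzyme of both compartments. Every one of the 36 genes passed the filter on low counts, which left 14011 genes for testing.

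RNA came from BxPC3, Panc327 and SUIT2, 3 lines of human pancreatic ductal adenocarcinoma grown in standard culture. Cells of each line received 100 nM THZ1 or the solvent DMSO alone for 6 h, and each of the 6 groups has 3 polyA RNA libraries. THZ1 is a covalent inhibitor of CDK7, a kinase of the general transcription machinery, and it also binds CDK12 and CDK13. No genetic change is named for any group, and the title of the series links the study to the integrated stress response and to resistance against inhibition of transcription. The labels do not say whether the 3 libraries of a group came from separate cultures, so the p-values measure the spread between these libraries, which may be technical.

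Gene counts per library ran from 5626146 to 8631273. Summed epithelial markers lay between 3718 and 8158 CPM, gene counts scaled to a common library size, against 0 to 6.25 CPM for 3 leukocyte markers, 2.32 to 18.6 CPM for 3 endothelial markers and 0.135 to 74.5 CPM for 3 fibroblast markers, of which only COL1A1 exceeded 1 CPM in BxPC3 and Panc327. The share of count records that aligned to several places rose with THZ1 from 12.8% ± 0.609 to 22.8% ± 0.805 (SD, n = 3) in BxPC3 and from 13.6% ± 0.149 to 52.8% ± 1.81 in Panc327. It was 13.2% ± 0.726 and 12.9% ± 0.902 in SUIT2. The exact 2-sided permutation test gave p = 0.1 in BxPC3 and in Panc327, the smallest that 3 against 3 libraries allow, and p = 0.7 in SUIT2. This share moved in the same 2 lines as the synthetase genes, and its part in the results below was not tested. In bulk RNA, a smaller amount of a transcript per cell and fewer cells that hold it cannot be told apart.

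A sequence that bears on amino acid supply was found in promoters of the cytosolic genes more often than in those of all genes. The element TGATGCAA, which reads TTGCATCA on the other strand, is the C/EBP-ATF response element (CARE) bound by ATF4, the transcription factor of the amino acid response. Among the 16 cytosolic genes with a RefSeq promoter (250 bases before to 50 after the start, GRCh38.p14), 6 hold it on either strand, and among the 14 mitochondrial genes 0 do. Of all 27305 genes with such a promoter, 295 hold it (1.08%), and of all 35116 promoters 304 do (0.866%), against 6 of the 21 cytosolic promoters. At that share the 0 of 14 mitochondrial genes lies near the background. The 6 matches are shown, each with 11 flanking bases on both sides on the strand of the gene, because these genes are known targets of the amino acid response; the capitals are the element. A match is a run of letters and not a measured binding site.
AARS (chr16:70289675-70289704, minus strand): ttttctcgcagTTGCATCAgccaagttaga
CARS (chr11:3057407-3057436, minus strand): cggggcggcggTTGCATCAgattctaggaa
IARS (chr9:92293692-92293721, minus strand): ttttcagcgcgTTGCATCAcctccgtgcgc
MARS (chr12:57488053-57488082, plus strand): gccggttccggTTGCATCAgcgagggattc
NARS (chr18:57621804-57621833, minus strand): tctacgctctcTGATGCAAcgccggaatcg
TARS (chr5:33440956-33440985, plus strand): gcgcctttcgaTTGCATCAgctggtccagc

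The E-box CACGTG, which reads the same on both strands and is bound by MYC with MAX, was found in 1 of the 16 cytosolic genes and in 3 of the 14 mitochondrial genes, against 2396 of the 27305 genes (8.77%) and 2548 of the 35116 promoters (7.26%). These matches are shown with the E-box in capitals because the MYC transcript itself changed in these cells. IARS holds both elements. No promoter sequence was used for DARS, LARS, VARS, YARS, AARS2 and VARS2.
IARS (chr9:92293867-92293894, minus strand): ggttcgttttcCACGTGgaggcgcaaaa
CARS2 (chr13:110706502-110706529, minus strand): gctgggatgcaCACGTGcttcgctaaca
EARS2 (chr16:23557349-23557376, minus strand): agggagaagccCACGTGtgctattccat
MARS2 (chr2:197705347-197705374, plus strand): tgcgcctctcaCACGTGctgtcagaacg

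With THZ1, the 2 classes moved apart in BxPC3 and in Panc327 and not in SUIT2. In BxPC3, 13 of 20 cytosolic genes rose and 6 fell, while 5 of 16 mitochondrial genes rose and 9 fell. Here and below, rises and falls are relative to the other transcripts of a library under either scaling. Amounts per cell were not measured, so a rise need not be a gain of transcript per cell. A gene was called changed at an adjusted p under 0.05 by edgeR's quasi-likelihood test with Benjamini-Hochberg adjustment over the 14011 genes. By that rule 69.4% of all genes changed in BxPC3, 35.2% upward and 34.1% downward, against 33 of the 36 synthetase genes. In Panc327, 11 cytosolic genes rose and 5 fell, and 3 mitochondrial genes rose and 8 fell, so that 27 of 36 were called where 73.4% of all genes were, 35.6% upward and 37.8% downward, a share near the background. With library size alone the cytosolic counts became 5 higher and 10 lower in BxPC3 and 3 higher and 12 lower in Panc327. SUIT2 gave 3 calls among the 36 genes, QARS and VARS2 upward and EARS2 downward, against 14.6% of all genes called, 6.95% upward and 7.64% downward.

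The median log2 fold change of the cytosolic genes was 0.27 in BxPC3, 0.18 in Panc327 and -0.01 in SUIT2, and that of the mitochondrial genes was -0.22, -0.27 and 0.02. Over all genes tested the medians were 0.00, -0.01 and 0.01. The direction of the cytosolic median depends on the scaling: with library size alone, without TMM factors, it was -0.12 in BxPC3 and -0.15 in Panc327, where the median of all genes shifted by -0.35 and -0.32. The distance between the class medians does not, being 0.49 in BxPC3, 0.45 in Panc327 and -0.03 in SUIT2 under both scalings. Without GARS, KARS and QARS the distances were 0.41, 0.36 and -0.04.

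A related distance, of means in place of medians, can be read within each library, as the mean of log2(CPM + 1) over the cytosolic genes minus that over the mitochondrial genes. In BxPC3 it was 2.31, 2.26 and 2.29 with DMSO and 2.71, 2.63 and 2.72 with THZ1. Panc327 had 1.999, 2.02 and 1.98 with DMSO and 2.55, 2.46 and 2.53 with THZ1. In both lines every THZ1 library lay above every DMSO library. SUIT2 had 2.20, 2.19 and 2.23 with DMSO and 2.16, 2.20 and 2.20 with THZ1, and its groups overlapped. A mean, unlike the class medians, is moved by large changes of single genes, such as PARS2 (log2 fold change -4.49) and MARS2 (-2.34) in Panc327. In that line the cytosolic mean was 7.42 with DMSO and 7.43 with THZ1, and the mitochondrial mean 5.42 and 4.91. In BxPC3 the cytosolic mean was 7.35 and 7.47, and the mitochondrial mean 5.06 and 4.78.

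**Figure D1:**
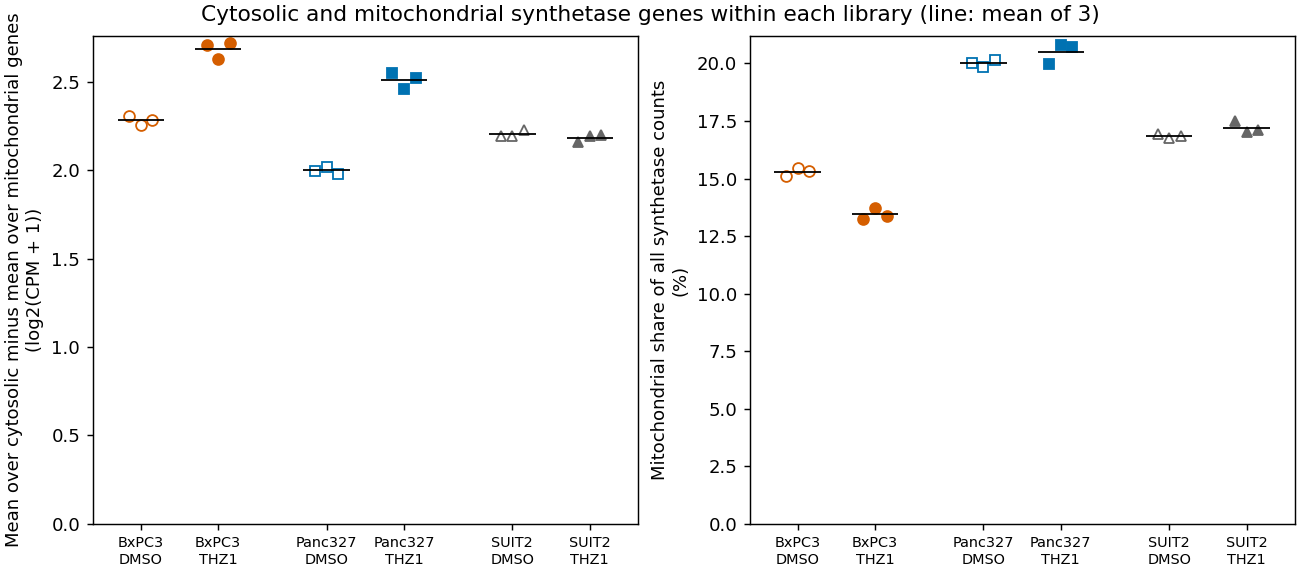
Left, the mean over the 20 cytosolic genes minus the mean over the 16 mitochondrial genes, in log2(CPM + 1), for each library; right, the mitochondrial genes' share of all synthetase counts in percent (open, DMSO; filled, THZ1; line, mean of 3). On the left the THZ1 libraries of BxPC3 and Panc327 lie above their DMSO libraries and those of SUIT2 do not; on the right the mean falls from 15.3% to 13.4% in BxPC3 and is 20.01% and 20.5% in Panc327.

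Summed over genes, the mitochondrial share of counts was lower with THZ1 in BxPC3 but not in Panc327, and 1 gene carries much of the sum. The mitochondrial genes' share of all synthetase counts in BxPC3 was 15.3% ± 0.187 (SD, n = 3) with DMSO and 13.4% ± 0.248 with THZ1. It was 20.01% ± 0.148 and 20.5% ± 0.462 in Panc327, and 16.8% ± 0.0963 and 17.2% ± 0.25 in SUIT2. IARS2, the mitochondrial isoleucyl enzyme, made up 24.3% ± 0.554 of the mitochondrial counts in BxPC3 with DMSO and 37.9% ± 0.847 with THZ1. In Panc327 its part went from 35.6% ± 0.729 to 54.5% ± 1.56, and in SUIT2 it was 26.6% ± 0.321 and 27.5% ± 0.673. Without IARS2 the mitochondrial sum was 505 ± 8.63 and 424 ± 9.84 CPM in BxPC3, 632 ± 7.93 and 498 ± 27.6 CPM in Panc327, and 532 ± 3.63 and 537 ± 7.18 CPM in SUIT2. All 36 genes together made up 0.467% ± 0.00784 of the gene counts of BxPC3 with DMSO and 0.414% ± 0.0054 with THZ1, 0.53% ± 0.00517 and 0.461% ± 0.00418 in Panc327, and 0.478% ± 0.00234 and 0.473% ± 0.0041 in SUIT2.

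**Figure D2:**
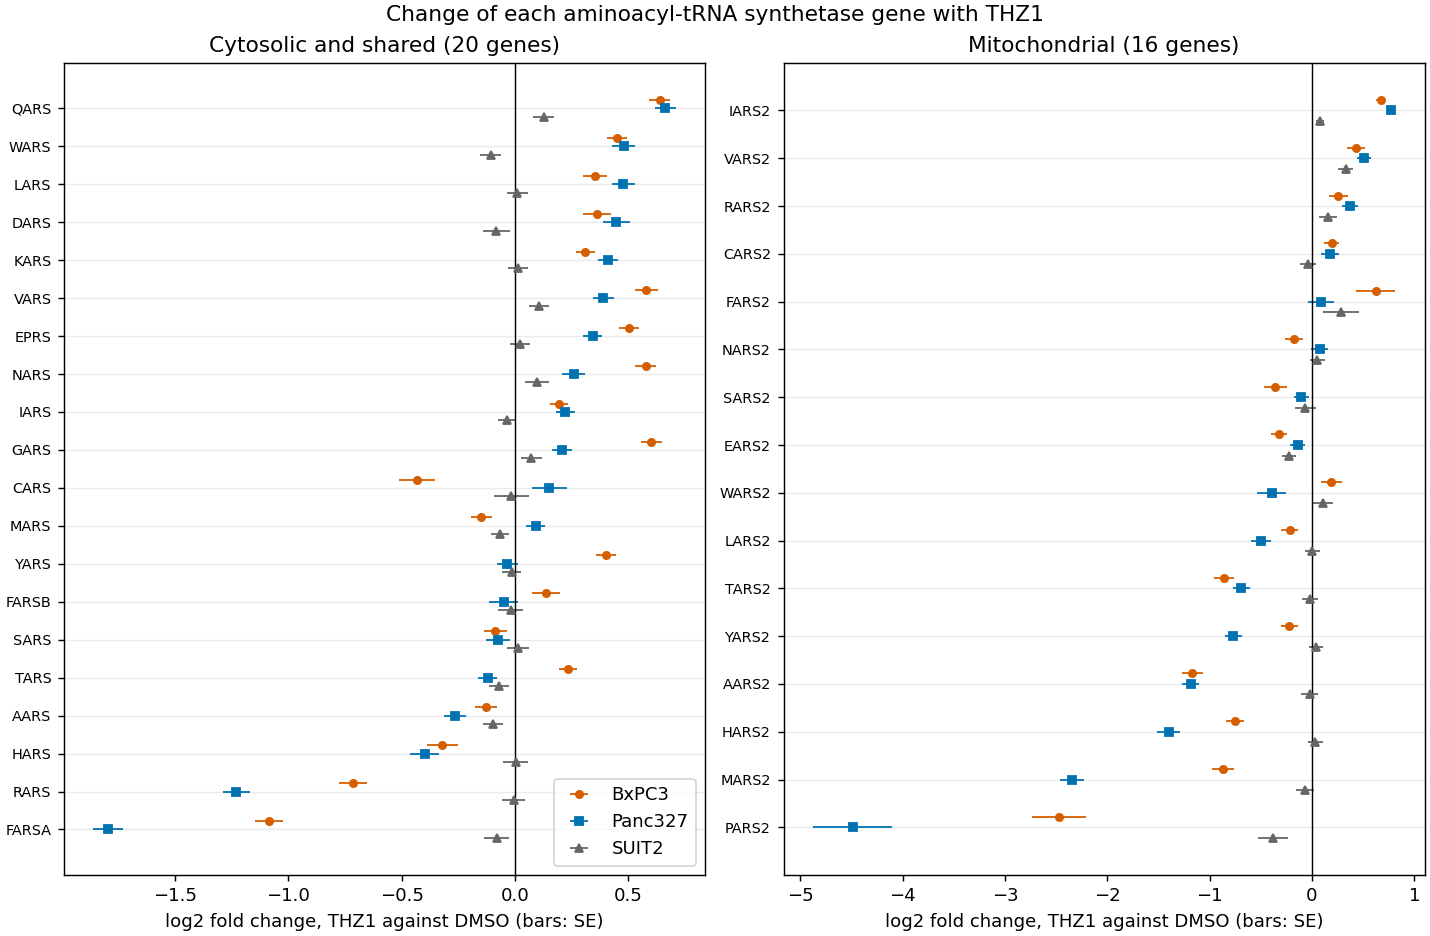
log2 fold change of each gene, THZ1 against DMSO, with its standard error, in BxPC3 (circles), Panc327 (squares) and SUIT2 (triangles); cytosolic and shared genes on the left, mitochondrial genes on the right, each ordered by Panc327, on different horizontal scales. FARSA and RARS fall among cytosolic genes that mostly rise (with library size alone 5 of 20 rise in BxPC3 and 3 in Panc327), and IARS2, VARS2 and RARS2 rise in a class where 9 of 16 genes fall in BxPC3 and 8 in Panc327; with library size alone RARS2 is at -0.14 in BxPC3 and 0.04 in Panc327.

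Among the cytosolic genes, QARS, the glutaminyl enzyme of the multisynthetase complex, rose most in both lines. It stood at 151, 161 and 160 CPM in the DMSO libraries of BxPC3 and at 240, 245 and 249 CPM with THZ1, a log2 fold change of 0.64 ± 0.05 (SE; edgeR adjusted p = 1.32e-22). In Panc327 it went from 160, 150 and 160 CPM to 248, 243 and 254 CPM (0.66 ± 0.05, edgeR adjusted p = 1.46e-23). Throughout, log2 values carry their SE and levels in CPM their SD (n = 3). The groups were apart in both lines, and the rises kept their call with library size alone, at 0.24 and 0.34. In SUIT2 QARS was at 172, 183 and 180 CPM with DMSO and 190, 198 and 197 CPM with THZ1 (0.13 ± 0.05, edgeR adjusted p = 0.046). That call ended when any of 4 single libraries was left out: DMSO library 1 or 3, or THZ1 library 2 or 3 (adjusted p from 0.104 to 0.203).

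GARS, the glycyl enzyme that serves both compartments, had 226, 201 and 219 CPM with DMSO and 338, 327 and 315 CPM with THZ1 in BxPC3, a log2 fold change of 0.60 ± 0.04 (edgeR adjusted p = 5.12e-22). VARS, the valyl enzyme, had 142, 137 and 146 CPM and then 206, 206 and 222 CPM (0.58 ± 0.05, edgeR adjusted p = 3.05e-19). Both sets of libraries were apart, and both genes stayed called higher with library size alone. GARS also rose in Panc327 (0.21), where the direction turned with library size alone (-0.12). VARS rose there by 0.39, or 0.06 with library size alone, a value no longer called.

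In Panc327 the next largest cytosolic rises after QARS were those of WARS and LARS. WARS, the tryptophanyl enzyme, which is also induced by interferon, went from 114, 118 and 118 CPM to 167, 163 and 157 CPM (0.48 ± 0.05, edgeR adjusted p = 1.73e-14). LARS, the leucyl enzyme of the complex and a leucine sensor of the mTORC1 pathway, went from 122, 127 and 121 CPM to 168, 177 and 172 CPM (0.48 ± 0.05, edgeR adjusted p = 1.9e-14). With library size alone each remained higher, at 0.15. In BxPC3 the changes were 0.45 for WARS and 0.35 for LARS, which became 0.05 and -0.04 with library size alone, and neither was called then.

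The large falls of the cytosolic class belonged to FARSA and RARS. FARSA encodes the catalytic alpha subunit of phenylalanyl-tRNA synthetase, and FARSB the beta subunit, which together form the active enzyme. FARSA stood at 143, 159 and 150 CPM in BxPC3 with DMSO and at 68.1, 71.8 and 73.3 CPM with THZ1, a 2.12-fold lower level (log2 fold change -1.09 ± 0.06, edgeR adjusted p = 7.94e-30). In Panc327 it went from 161, 154 and 160 CPM to 47.9, 44.3 and 44.8 CPM, 3.47-fold lower (-1.79 ± 0.07, edgeR adjusted p = 2.03e-42). Every DMSO library lay far above every THZ1 library in both lines. SUIT2 had 117, 129 and 123 CPM and then 128, 110 and 110 CPM, with overlapping groups.

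FARSB changed less than FARSA, and its direction depends on the scaling: with library size alone it was called lower at -0.26 in BxPC3 and -0.38 in Panc327, where FARSA was at -1.48 and -2.12. With TMM factors it had 76.6, 72.7 and 76.5 CPM with DMSO and 80, 81.3 and 86.5 CPM with THZ1 in BxPC3 (0.14, edgeR adjusted p = 0.0449), and the call ended without any of 5 of the 6 libraries of that line, THZ1 library 1 being the exception. In Panc327 its change was -0.05 (edgeR adjusted p = 0.495). The ratio of FARSA to FARSB counts within a library, set up after their values were seen, does not depend on the scaling. In BxPC3 it was 2.01 ± 0.161 (SD, n = 3) with DMSO and 0.86 ± 0.0197 with THZ1. It was 2.23 ± 0.105 and 0.664 ± 0.0461 in Panc327, and 1.26 ± 0.0962 and 1.2 ± 0.148 in SUIT2. In the first 2 lines FARSA counts thus lay above FARSB counts in every DMSO library and below them in every THZ1 library.

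RARS, the arginyl enzyme of the multisynthetase complex, went from 110, 99.3 and 104 CPM to 66.9, 59.9 and 63.6 CPM in BxPC3 (-0.72 ± 0.06, edgeR adjusted p = 1.23e-18). In Panc327 it went from 150, 156 and 160 CPM to 62.6, 68.3 and 68.5 CPM, 2.34-fold lower (-1.23 ± 0.06, edgeR adjusted p = 4.43e-34). Its SUIT2 libraries lay between 126 and 132 CPM in both groups. EPRS, the glutamyl-prolyl enzyme of the same complex, moved the other way, by 0.50 in BxPC3 and 0.34 in Panc327 (0.11 and 0.02 with library size alone, the second no longer called). The ratio of RARS to EPRS counts, also set up after their values were seen, was 0.393 ± 0.00941 and 0.169 ± 0.00936 in BxPC3, 0.353 ± 0.00327 and 0.119 ± 0.006 in Panc327, and 0.509 ± 0.00743 and 0.499 ± 0.0269 in SUIT2.

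**Figure D3:**
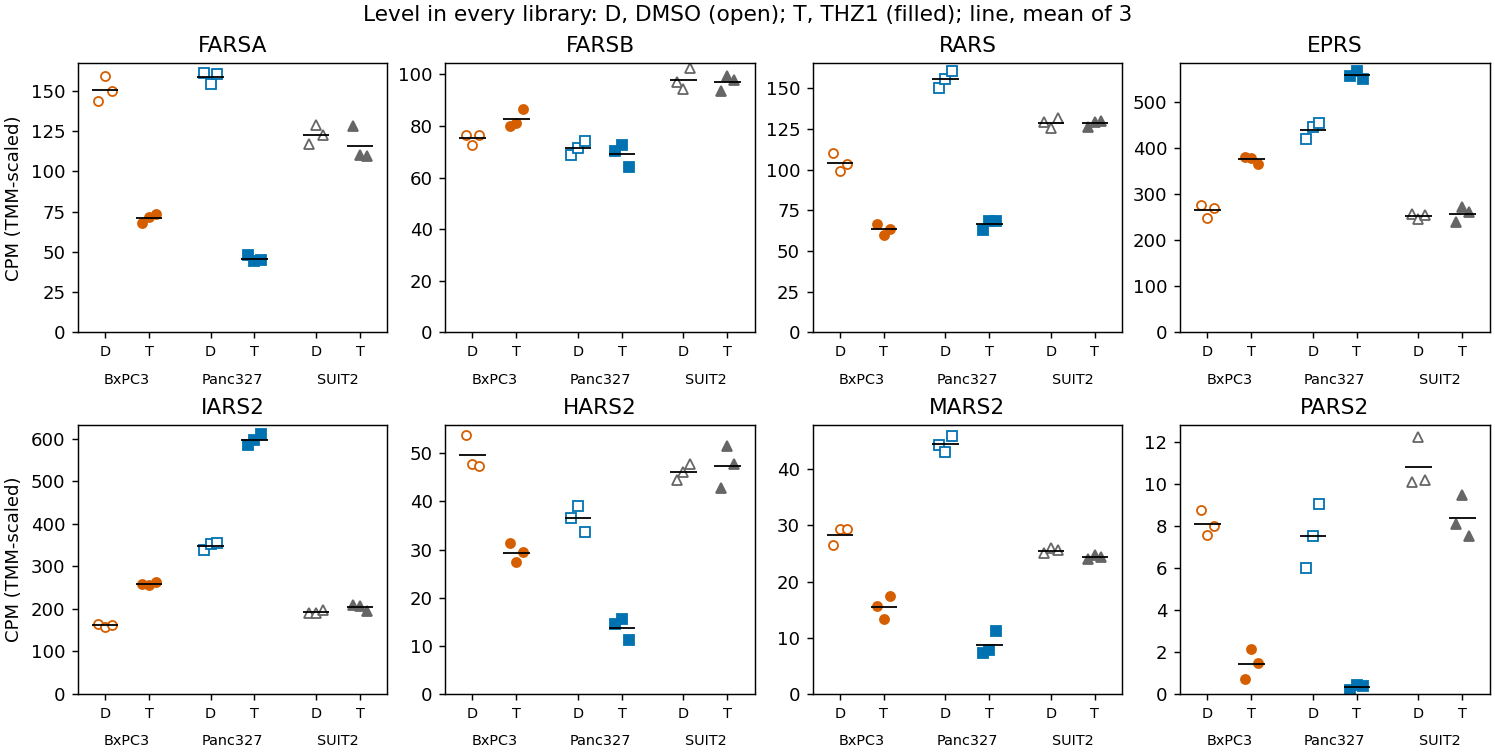
Level in CPM, scaled by TMM, of 4 cytosolic genes (upper row) and 4 mitochondrial genes (lower row) in every library (D and open points, DMSO; T and filled points, THZ1; line, mean of 3); each panel starts at 0 and has its own scale. FARSA falls in BxPC3 and Panc327 while its partner FARSB stays between 64.1 and 86.5 CPM there, RARS falls while EPRS rises, and IARS2 rises while HARS2, MARS2 and PARS2 fall; with library size alone FARSB is lower in both lines and the EPRS rise in Panc327 is 0.02.

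The third largest cytosolic fall was that of CARS in BxPC3 and of HARS in Panc327. CARS, the cysteinyl enzyme, went from 56.3, 54.5 and 59.2 CPM to 35.6, 45.4 and 44.9 CPM in BxPC3 (-0.43 ± 0.08, edgeR adjusted p = 1.11e-06), and its change in Panc327 was 0.15 (edgeR adjusted p = 0.0646). HARS, the cytosolic histidyl enzyme, went from 92.6, 88.1 and 87 CPM to 65.8, 75.3 and 62.5 CPM in Panc327 (-0.40 ± 0.06, edgeR adjusted p = 4.13e-08), and it fell by 0.32 on the log2 scale in BxPC3.

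Of the 8 genes of the multisynthetase complex, most were called higher with TMM factors, but with library size alone 2 were higher and 3 lower in BxPC3 and also in Panc327. In BxPC3 with TMM factors, 6 rose and 2, MARS and RARS, fell, with a median of 0.33 (-0.06 with library size alone), and in Panc327 7 rose and RARS fell, with a median of 0.38 (0.05), where 35.2% and 35.6% of all genes rose. DARS, the aspartyl enzyme, rose by 0.36 and 0.45, KARS, the lysyl enzyme, by 0.31 and 0.41, and IARS, the isoleucyl enzyme, by 0.19 and 0.22. With library size alone DARS, KARS and IARS were at -0.03, -0.09 and -0.20 in BxPC3 and at 0.12, 0.08 and -0.10 in Panc327. MARS, the methionyl enzyme, fell by 0.15 in BxPC3 and rose by 0.09 in Panc327, and the second call turned with library size alone (-0.23) and ended without any 1 of 5 of its 6 libraries, all but DMSO library 1. MARS lies across DDIT3 and ARHGAP9 on the other strand in GENCODE 29, and the strand setting of the counting is not given in the sources used here.

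Of the 12 cytosolic genes outside the complex, 7 rose and 4 fell in BxPC3 (median 0.19, or -0.21 with library size alone), and 4 rose and 4 fell in Panc327 (-0.04, or -0.37). Over all genes 35.2% rose and 34.1% fell in BxPC3 and 35.6% and 37.8% in Panc327, so the Panc327 counts lie near the background. Scaled by library size alone, 3 of the 12 were higher and 7 lower in BxPC3, and 1 and 9 in Panc327. NARS, the asparaginyl enzyme, rose by 0.58 and 0.26 (0.18 and -0.07 with library size alone). YARS, the tyrosyl enzyme, rose by 0.40 in BxPC3 and was not called in Panc327 (-0.03). With library size alone YARS was at 0.005 in BxPC3, no longer called, and at -0.36 in Panc327, called lower. TARS, the threonyl enzyme, rose by 0.23 in BxPC3 (-0.16 with library size alone) and fell by 0.12 in Panc327, a call that ended with RLE factors (-0.00). AARS, the alanyl enzyme, fell by 0.13 and 0.26, the first call ending with RLE factors (adjusted p = 0.0876), and SARS, the seryl enzyme, was not called in any line with TMM factors (-0.09, -0.08 and 0.01) but was called lower with library size alone in BxPC3 (-0.48) and Panc327 (-0.40).

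Among the mitochondrial genes, PARS2, the prolyl enzyme, fell furthest. It had 8.76, 7.58 and 7.97 CPM in BxPC3 with DMSO and 0.711, 2.12 and 1.5 CPM with THZ1, 5.55-fold lower (-2.47 ± 0.26, edgeR adjusted p = 2.51e-14). Panc327 had 5.99, 7.5 and 9.06 CPM and then 0.174, 0.414 and 0.395 CPM (-4.49 ± 0.39, edgeR adjusted p = 1.24e-18). These last values rest on 5 counts in 3 libraries against 207 with DMSO, a ratio of 23.6-fold lower with a 95% interval of 9.94 to 73.4 that covers counting error only. In BxPC3 25 counts stood against 209. SUIT2 had 10.1, 12.2 and 10.2 CPM with DMSO and 8.06, 9.48 and 7.53 CPM with THZ1, groups that did not overlap but were not called (-0.38 ± 0.15, edgeR adjusted p = 0.0738).

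MARS2, the mitochondrial methionyl enzyme, is a single-exon gene of 3019 bases. It had 26.4, 29.3 and 29.3 CPM with DMSO and 15.6, 13.3 and 17.4 CPM with THZ1 in BxPC3 (-0.87 ± 0.11, edgeR adjusted p = 1.15e-11). In Panc327 it went from 44.2, 43.1 and 46 CPM to 7.29, 7.86 and 11.2 CPM, 5.07-fold lower (-2.34 ± 0.12, edgeR adjusted p = 3.2e-33). AARS2, the mitochondrial alanyl enzyme, fell by nearly the same factor in both lines. Its libraries went from 39.2, 37.9 and 39.2 CPM to 16.9, 17.5 and 17.3 CPM in BxPC3 (-1.17 ± 0.10, edgeR adjusted p = 1.64e-18) and from 71.8, 71.6 and 71.8 CPM to 27.2, 33.3 and 34.5 CPM in Panc327 (-1.19 ± 0.08). In SUIT2 neither was called, with -0.07 for MARS2 and -0.02 for AARS2.

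HARS2, the mitochondrial histidyl enzyme, went from 36.6, 39 and 33.7 CPM to 14.6, 15.5 and 11.2 CPM in Panc327, 2.64-fold lower (-1.40 ± 0.11, edgeR adjusted p = 7.37e-21), and fell by 0.76 on the log2 scale in BxPC3. HARS2 and HARS lie head to head on chromosome 5 and overlap, with starts 436 bases apart, so counts of one could in part be reads of the other where strand was not used. The ratio of HARS2 to HARS counts, set up after their values were seen, was 0.698 ± 0.0513 and 0.515 ± 0.0133 in BxPC3, 0.409 ± 0.0299 and 0.202 ± 0.0211 in Panc327, and 0.438 ± 0.00802 and 0.45 ± 0.0491 in SUIT2. In the first 2 lines the ratio was thus lower in every THZ1 library than in every DMSO library of the same line.

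The other called falls of this class were smaller. TARS2, the threonyl enzyme, fell by 0.86 in BxPC3 and 0.69 in Panc327 on the log2 scale. YARS2, the tyrosyl enzyme, fell by 0.22 and 0.77, and in BxPC3 its groups overlapped (42.7 to 44.3 CPM and 32.2 to 43.8 CPM). LARS2, the leucyl enzyme, fell by 0.22 and 0.50. The BxPC3 calls of YARS2 and LARS2 ended when single libraries were left out: THZ1 library 1 or 3 for YARS2 (adjusted p = 0.0608 and 0.247), and DMSO library 3 or THZ1 library 1 for LARS2 (0.0952 and 0.138). SARS2, the seryl enzyme, and EARS2, the glutamyl enzyme, fell in BxPC3 by 0.36 and 0.32 and had -0.11 and -0.14 in Panc327. WARS2, the tryptophanyl enzyme, fell by 0.39 in Panc327 and had 0.19 in BxPC3, and the fall was not called without THZ1 library 3 (adjusted p = 0.0708).

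IARS2 rose most in its class, and with QARS most of all 36 genes. It went from 165, 158 and 163 CPM to 258, 255 and 262 CPM in BxPC3 (0.67 ± 0.04, edgeR adjusted p = 3.98e-25) and from 337, 353 and 355 CPM to 584, 598 and 610 CPM in Panc327 (0.78 ± 0.04, edgeR adjusted p = 1.9e-32). The groups were apart, and the rises were 0.28 and 0.45 with library size alone, both still called. SUIT2 had 191, 191 and 198 CPM and then 209, 207 and 196 CPM.

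VARS2, the mitochondrial valyl enzyme, was called higher in all 3 lines. It went from 28, 30.8 and 29.8 CPM to 41.3, 39.4 and 38.9 CPM in BxPC3 (0.43 ± 0.09, edgeR adjusted p = 6.06e-06), from 54.7, 52.7 and 52.6 CPM to 67.8, 81.3 and 78.9 CPM in Panc327 (0.51 ± 0.07, edgeR adjusted p = 4.02e-10) and from 44.2, 40 and 39.3 CPM to 54.1, 53.5 and 47.7 CPM in SUIT2 (0.33 ± 0.07, edgeR adjusted p = 0.000582). With library size alone the values were 0.03, no longer called, 0.18 and 0.31. VARS2 overlaps GTF2H4 on the same strand in GENCODE 29, so some reads could belong to either gene.

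RARS2, the arginyl enzyme, rose from 37.8, 41.4 and 46.1 CPM to 50.1, 56.1 and 56 CPM in Panc327 (0.37 ± 0.08, edgeR adjusted p = 2.48e-05) and by 0.26 in BxPC3. With library size alone RARS2 was at 0.04 in Panc327 and -0.14 in BxPC3, neither of them called. The BxPC3 call ended without DMSO library 1 or THZ1 library 1 (adjusted p = 0.0526 and 0.138). FARS2, the phenylalanyl enzyme, is a single-chain protein, unlike its 2-subunit cytosolic counterpart. It went from 5.23, 4.86 and 4.55 CPM to 8.89, 7.96 and 5.81 CPM in BxPC3 (0.62 ± 0.19, edgeR adjusted p = 0.00268; 0.23 with library size alone, no longer called) and had 0.08 in Panc327. CARS2, the cysteinyl enzyme, rose by 0.19 in BxPC3 (-0.20 with library size alone), a call that ended without THZ1 library 2 (adjusted p = 0.0678), and had 0.18 in Panc327. NARS2, the asparaginyl enzyme, was not called in any line by the edgeR test with TMM factors (-0.17, 0.08 and 0.05). It was called lower in BxPC3 with limma voom (adjusted p = 0.0473), without a filter, with the compared groups alone and with library size alone (-0.57), and in Panc327 higher with RLE factors (0.19) and lower with library size alone (-0.25).

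The single fall called in SUIT2 was that of EARS2, which makes glutamyl-tRNA in the mitochondrion, including the precursor of its glutaminyl-tRNA. Its libraries went from 63.1, 57 and 58.6 CPM to 50.4, 47.3 and 54.8 CPM (-0.23 ± 0.07, edgeR adjusted p = 0.0149), and the call ended without DMSO library 1 or THZ1 library 2 (adjusted p = 0.103 and 0.109). The largest change of any of the 36 genes in SUIT2, called or not, was that of PARS2.

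Where both compartments have a gene for the same amino acid outside the shared genes, 13 pairs can be formed by name. The cytosolic gene had the higher log2 fold change in 10 of 13 pairs in BxPC3 and in 9 of 13 in Panc327, against 5 of 13 in SUIT2. Those that went the other way in BxPC3 were those of CARS2, IARS2 and RARS2, joined by VARS2 in Panc327. These are differences between pairs of genes of the same libraries and so do not depend on the scaling.

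BxPC3 and Panc327 called 13 genes higher in common (DARS, EPRS, GARS, IARS, KARS, LARS, NARS, QARS, VARS, WARS, IARS2, RARS2 and VARS2). With library size alone 6 of 18 rises in BxPC3 and 5 of 14 in Panc327 remained, and 4 and 3 were called lower. Of the 13, only QARS and IARS2 then remained called higher in both lines. The 2 lines called 11 lower in common (AARS, FARSA, HARS, RARS, AARS2, HARS2, LARS2, MARS2, PARS2, TARS2 and YARS2). All of the 15 falls of BxPC3 and the 13 of Panc327 remained called with library size alone. That scaling moved the values of all 36 genes downward in both lines, so it could end rises but was no test of the falls. MARS and TARS were called in opposite directions with TMM factors. With library size alone both were called lower in both lines, MARS at -0.54 in BxPC3 and -0.23 in Panc327, TARS at -0.16 and -0.45. Over the 36 genes the log2 fold changes of the 2 lines had a Spearman correlation of 0.85 and a Pearson correlation of 0.91, against 0.69 and 0.63 over all 14011 genes. The 2 lines share no library, but genes are not independent replicates, and the values are a description.

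**Figure D4:**
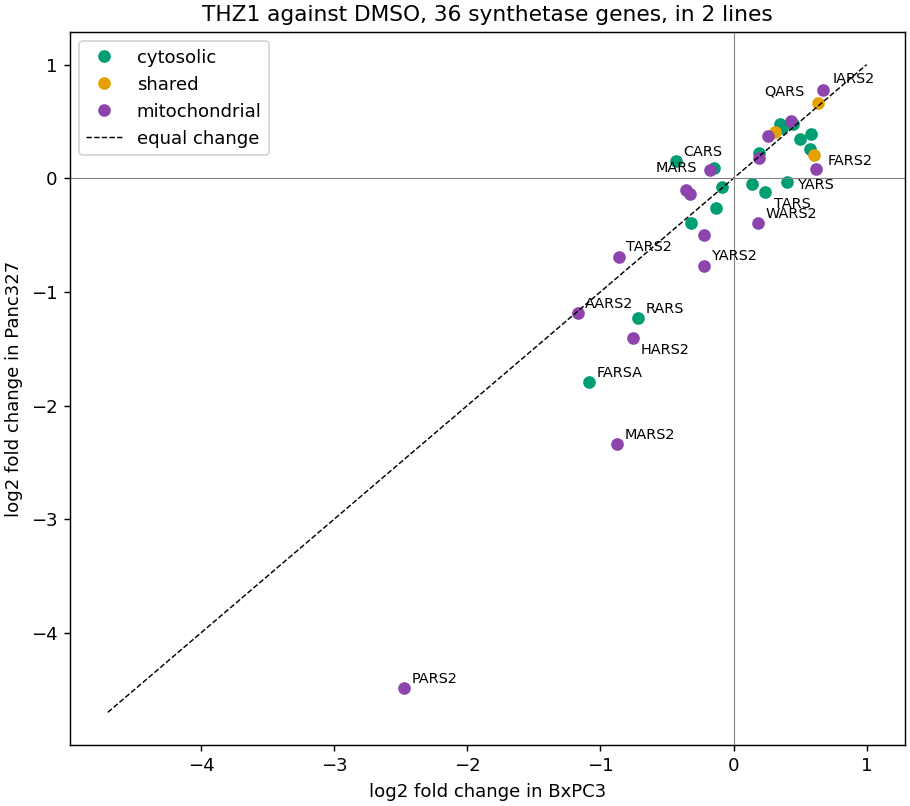
log2 fold change with THZ1 in BxPC3 (horizontal) and in Panc327 (vertical) of the 36 genes, coloured by class; the dashed line marks equal change. Most genes lie near the line. PARS2, MARS2, FARSA, RARS, HARS2, YARS2, WARS2 and FARS2 lie furthest below it, and CARS lies furthest above it. With library size alone every point is lower on both axes, and rises near 0 turn.

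Whether a response differed between lines was tested as an interaction in the same fit. Between BxPC3 and Panc327, 13 of 36 genes had a higher and 2 a lower response in BxPC3, against 36.3% of all genes called, 22.2% higher and 14.1% lower. The falls of MARS2 and FARSA were smaller in BxPC3, by 1.47 ± 0.17 (edgeR adjusted p = 9.55e-12) and 0.71 ± 0.09 (edgeR adjusted p = 5.42e-10). For PARS2 the difference was 2.02 ± 0.64 (edgeR adjusted p = 0.00859), which was not called without THZ1 library 2 of BxPC3 (1.65, adjusted p = 0.0713) or THZ1 library 1 of Panc327 (1.69, adjusted p = 0.0554). CARS and MARS had the lower response in BxPC3, by -0.58 ± 0.11 and -0.24 ± 0.06. The number with a lower response moved from 2 to 8 with RLE factors, 7 with library size alone, 6 with DESeq2 and 12 when only the compared groups were fitted.

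Against SUIT2, 13 genes responded more upward in BxPC3 and 10 more downward (54.9% of all genes called, 27.3% higher and 27.6% lower), and in Panc327 11 and 12 did (60.7%, 28.3% and 32.4%). The largest upward differences for BxPC3 were those of IARS2 (0.60 ± 0.06), WARS (0.56 ± 0.06) and GARS (0.53 ± 0.06), and for Panc327 those of IARS2 (0.70 ± 0.06), WARS (0.59 ± 0.07) and QARS (0.54 ± 0.07). The largest downward ones were PARS2 (-2.09 ± 0.32), AARS2 (-1.15 ± 0.13) and FARSA (-1.004 ± 0.08) for BxPC3, and PARS2 (-4.11 ± 0.45), MARS2 (-2.27 ± 0.15) and FARSA (-1.71 ± 0.09) for Panc327. With library size alone the upward and downward counts became 3 and 20 for BxPC3 and 5 and 21 for Panc327. These 2 comparisons share the SUIT2 libraries, and each is given by its own values.

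The levels with DMSO alone differed between lines as well. Per kilobase of exon, the median DMSO level of the cytosolic genes was 34.9 CPM per kb in BxPC3, 36.9 in Panc327 and 36.7 in SUIT2, and that of the mitochondrial genes 8.57, 10.5 and 8.88. The ranges overlapped: IARS2, the highest mitochondrial gene in each line, had 38.9 ± 0.901, 83.7 ± 2.35 and 46.4 ± 0.945 CPM per kb (SD, n = 3), and in Panc327 it stood above every cytosolic gene by its mean, next to EPRS at 80.9 ± 3.16, a gap within their spread. CARS was the lowest cytosolic gene in each line, at 5.65 ± 0.236, 5.33 ± 0.263 and 4.26 ± 0.331 CPM per kb. TARS was the highest cytosolic gene in BxPC3 (73.7 ± 1.59) and KARS in SUIT2 (61.8 ± 1.75). YARS2 came second among the mitochondrial genes in every line.

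Of the 36 genes, 9 were higher and 20 lower in BxPC3 than in Panc327 with DMSO, where 79.3% of all genes were called, 38.6% higher and 40.7% lower. FARS2 (4.88 ± 0.34 against 16.1 ± 0.967 CPM; log2 difference -1.72), SARS2 (-1.49) and IARS2 (-1.11) were the furthest below Panc327, and WARS (240 ± 6.8 against 117 ± 2.15 CPM; 1.04), CARS2 (0.84) and WARS2 (0.80) the furthest above it. Against SUIT2, 8 genes were higher and 16 lower in BxPC3 (78.6% of all genes called, 38.9% and 39.7%). TARS (421 ± 9.07 against 180 ± 1.81 CPM; 1.22), NARS (0.91) and CARS2 (0.51) led the higher ones and LARS (-0.80), VARS (-0.62) and HARS (-0.56) the lower ones. In Panc327 against SUIT2, 17 were higher and 14 lower (82.5% of all genes called, 42.9% and 39.6%), with SARS2 (74 ± 7.01 against 23 ± 2.9 CPM; 1.69), FARS2 (1.498) and AARS2 (0.99) at one end and WARS2 (-0.62), LARS2 (-0.58) and LARS (-0.56) at the other. Each named difference had an edgeR adjusted p of 3.35e-07 or less.

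Genes with related roles were read from a list of 24, which holds partners of tRNA charging together with the regulators ATF4 and MYC and the sensors of uncharged tRNA EIF2AK4 and GCN1. In BxPC3 5 rose and 9 fell, where 35.2% of all genes rose and 34.1% fell, so the falls were near the background. In Panc327 6 rose and 15 fell, against 35.6% and 37.8% of all genes. In SUIT2 5 fell, against 7.64% of all genes, and of these ATF4, MYC and EIF2AK4 are not partners of charging, while QRSL1 and XPOT are. The scaffold of the multisynthetase complex split: AIMP1 rose by 0.41 in BxPC3 and 0.37 in Panc327 (0.01 and 0.05 with library size alone), while AIMP2 fell by 0.52 and 0.92 and EEF1E1 by 0.62 and 0.78. Of the mitochondrial amidotransferase that turns glutamyl-tRNA made by EARS2 into glutaminyl-tRNA, QRSL1 fell by 1.24 and 1.23 and GATC by 0.78 and 0.80, while GATB rose by 0.58 in Panc327. MTFMT, which formylates the initiator methionyl-tRNA made by MARS2, went from 19.7 ± 1.18 to 9.98 ± 1.32 CPM in BxPC3 (-0.98) and from 13 ± 0.9 to 6.78 ± 1.07 CPM in Panc327 (-0.95). The factors that carry charged tRNA to the ribosome rose, EEF1A1 in the cytosol by 0.59 and 0.63 and TUFM in the mitochondrion by 0.70 and 0.70, and both remained higher with library size alone. ELAC1, which trims tRNA ends, had the largest fall of the list in Panc327, from 8.4 ± 0.588 to 0.958 ± 0.333 CPM (-3.11, edgeR adjusted p = 6.64e-16). In BxPC3 it had 0 CPM with DMSO and with THZ1, so no change could be seen there. Among the genes called in SUIT2 the largest falls were those of ATF4 and QRSL1 (-0.25, adjusted p = 0.0355, not called with DESeq2 or without DMSO library 1 or 3 or THZ1 library 1 or 2).

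The transcript of ATF4 rose in BxPC3 from 228 ± 6.31 to 300 ± 8.47 CPM (0.39, or -0.00 with library size alone) and fell in Panc327 from 359 ± 11.2 to 270 ± 8.75 CPM (-0.41) and in SUIT2 from 240 ± 5.1 to 184 ± 2.71 CPM (-0.38). The 6 synthetase genes whose promoters hold the CARE element shown above did not move as one: in BxPC3 IARS, NARS and TARS rose and AARS, CARS and MARS fell, and in Panc327 IARS, MARS and NARS rose and AARS and TARS fell. With library size alone, NARS was the only one of the 6 called higher in BxPC3, and the rises of IARS, MARS and NARS in Panc327 turned (-0.10, -0.23 and -0.07). MYC fell in all 3 lines, by 0.53 in BxPC3, 2.09 in Panc327 and 0.19 in SUIT2. Of the 4 genes with an E-box, MARS2 fell by 0.87 and 2.34 in BxPC3 and Panc327, EARS2 by 0.32 in BxPC3, while IARS rose in both and CARS2 in BxPC3, rises that turned with library size alone.

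Among mitochondrial genes, the shorter ones had the lower fold changes. Over the 16 mitochondrial genes the log2 fold change had a Spearman correlation with the length of the gene from start to end of 0.73 in BxPC3, 0.59 in Panc327 and 0.56 in SUIT2. Over the 20 cytosolic genes it was 0.00, 0.20 and -0.39, and over 12648 protein-coding genes -0.03, 0.01 and 0.02. MARS2 (3019 bases), PARS2 (7617 bases, 2 exons) and HARS2 (7893 bases) are the 3 shortest mitochondrial genes, and FARSA (11559 bases) is the shortest cytosolic gene after QARS (9204 bases), which rose. The fold changes in BxPC3 and Panc327 also went with the mean level over all 18 libraries. That mean includes the THZ1 libraries, so it is not a starting level and is not independent of the fold change. Over the 36 genes the Spearman correlation was 0.52 in BxPC3, 0.49 in Panc327 and -0.06 in SUIT2, against 0.28, 0.19 and 0.15 over the protein-coding genes. Within the classes, which differ in level, it was 0.43 over the cytosolic and 0.26 over the mitochondrial genes in BxPC3, 0.23 and 0.39 in Panc327, and 0.13 and -0.01 in SUIT2. All points of a line come from the same 6 libraries, so these are descriptions of genes within them.

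**Figure D5:**
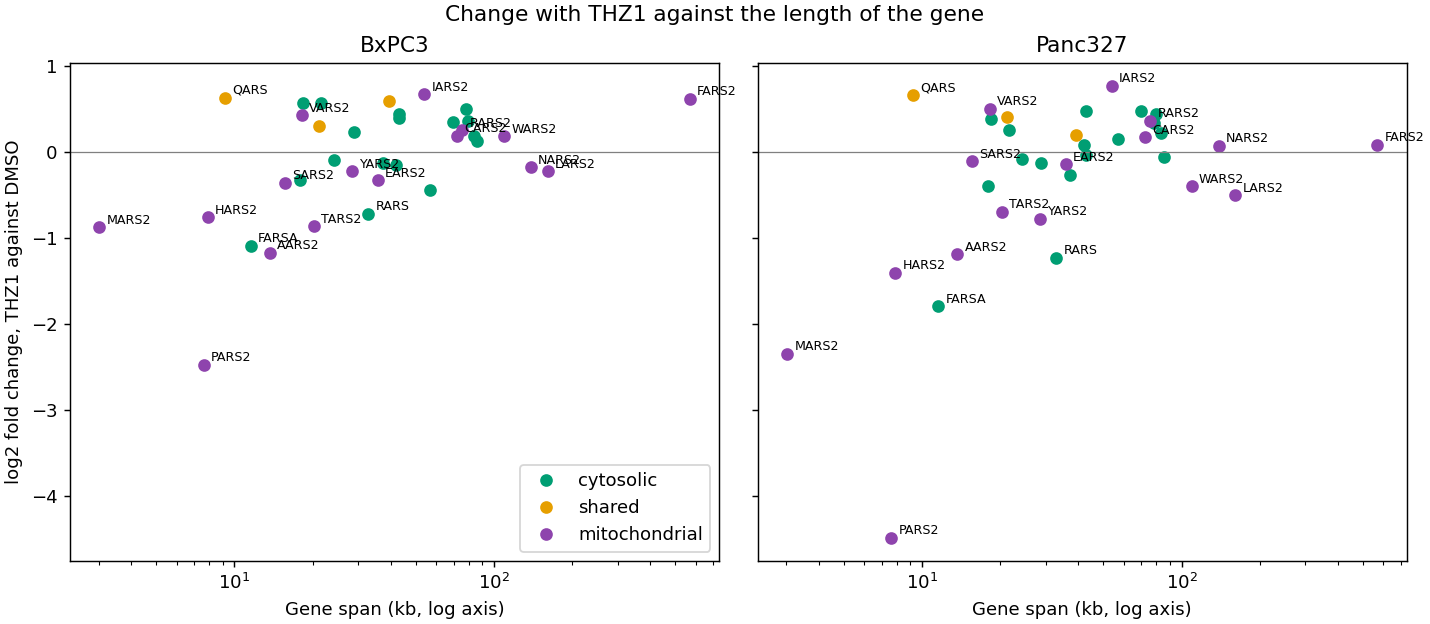
log2 fold change with THZ1 against the length of the gene in GENCODE 29 (kb, log axis) in BxPC3 (left) and Panc327 (right), coloured by class. MARS2, PARS2, HARS2, AARS2 and FARSA, at the short end, lie below 0 in both panels, and QARS and VARS2, also short, lie above it; with library size alone VARS2 in BxPC3 is at 0.03.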

How the data were processed

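Each of the 18 libraries has 1 table of raw counts per gene symbol, deposited by the authors. Per the submitters' processing notes the tools were bcl2fastq 1.8.4, TopHat2 2.1.0 and HTSeq 0.6.1 with genome hg38; no source used here gives the counting mode, strand setting or annotation. Per the labels' protocols, RNA was purified with RNeasy and libraries were made with TruSeq v2. The 5 summary entries of each table (21.3% to 64.6% of its records) entered neither library sizes nor tests.

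Counts were fitted in edgeR 4.0.16 (R 4.3.3) with TMM factors, filterByExpr (minimum count 10, minimum total 15), 6 group means over all 18 libraries (12 residual degrees of freedom), robust quasi-likelihood tests and Benjamini-Hochberg adjustment over 14011 genes, with a threshold of 0.05. CPM values are TMM-scaled. Alternatives were RLE factors, library size alone, no filter, DESeq2 1.42.0, limma 3.58.1 voom, the compared groups alone, a replicate block, and each library left out. Scripts were tested on simulated data in which few genes changed, in both directions. Those data did not copy the wide shifts of BxPC3 and Panc327, so they do not bear on the choice of scaling. Replicates differed by more than counting noise (chi-square per degree of freedom 1.25 to 2.53). More counts narrow the interval of a value, and low genes such as PARS2 are the least precise.

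Positions and lengths are from GENCODE 29 (GRCh38), which matched 36 of 36 synthetase genes by symbol and 13267 of the genes tested; promoters are RefSeq's (GRCh38.p14), found for 30 of 36. In GENCODE 29, 19 of the 36 genes are overlapped by another gene of the tables and 11 have named pseudogenes. Some of their reads may thus have been left out of the counts or assigned to the other gene. The synthetase genes and the lists were chosen with earlier results of these data known. Every synthetase gene is named with its THZ1 change, the 3 largest called rises and falls of a class in full; for differences between lines the 3 largest called genes each way are named, and for the list of related genes the 2 largest called, plus ATF4 and MYC. Others of that list were named after their values were seen.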

Additional observations from a re-analysis of the deposited data

Results flagged for a closer look

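Responses to THZ1 that differed between lines by the interaction test in edgeR are collected here as log2 differences, with no explanation. BxPC3 minus Panc327 gave 2.02 for PARS2, 1.47 for MARS2, 0.71 for FARSA, -0.58 for CARS and -0.24 for MARS. BxPC3 minus SUIT2 gave 0.60 for IARS2, 0.56 for WARS, 0.53 for GARS, -2.09 for PARS2, -1.15 for AARS2 and -1.004 for FARSA. Panc327 minus SUIT2 gave 0.70 for IARS2, 0.59 for WARS, 0.54 for QARS, -4.11 for PARS2, -2.27 for MARS2 and -1.71 for FARSA.

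The records that aligned to several places are not part of the gene counts. Their share with THZ1 was 22.8% in BxPC3 and 52.8% in Panc327, above the 12.8% and 13.6% of the DMSO libraries, and its part in the synthetase results was not tested.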

How the results depend on the processing

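Library size alone changed most: BxPC3 rises 6 (cytosolic 5, mitochondrial 1), cytosolic falls 10, medians -0.12 and -0.61; Panc327 rises 5 (cytosolic 3), falls 23 (cytosolic 12), medians -0.15 and -0.59; rises and falls in response 3 and 20 for BxPC3 minus SUIT2, 5 and 21 for Panc327 minus SUIT2, and 7 lower for BxPC3 minus Panc327. It turned DARS (-0.034), FARSB (-0.26), IARS (-0.20), KARS (-0.086), LARS (-0.043), TARS (-0.16), CARS2 (-0.20), RARS2 (-0.14) and ATF4 (-0.0033) in BxPC3, and CARS (-0.17), GARS (-0.12), IARS (-0.10), MARS (-0.23), NARS (-0.067) and NARS2 (-0.25) in Panc327. The cytosolic median of BxPC3 was 0.31 with RLE factors or DESeq2, 0.24 without a filter, 0.22 with the compared groups alone and 0.19 without GARS, KARS and QARS. That of Panc327 was 0.30 with RLE factors or DESeq2, 0.12 without a filter and 0.091 without those 3 genes. Its mitochondrial median was -0.15 with RLE factors or DESeq2, and RLE factors gave 5 mitochondrial rises. The lower responses of BxPC3 against Panc327 numbered 8 with RLE factors, 6 with DESeq2 and 12 with the compared groups alone. RLE factors and DESeq2 also ended the calls of AARS and LARS2 in BxPC3 and of TARS and WARS2 in Panc327, DESeq2 that of YARS2 in BxPC3, and the fit without a filter those of FARSB and CARS2 in BxPC3 and MARS in Panc327. limma voom kept all 36 of the summary values. Calls were gained by SARS and NARS2 in BxPC3 with the compared groups alone, by NARS2 there with no filter or limma voom and WARS2 with RLE factors, and in Panc327 by CARS and CARS2 with RLE factors or DESeq2, NARS2 with RLE factors, and SARS, SARS2 and EARS2 with no filter; library size alone added calls for SARS in both lines, NARS2 in BxPC3 and FARSB, YARS, EARS2 and SARS2 in Panc327. Leaving out single libraries added calls for CARS (DMSO 3 or THZ1 1), SARS (THZ1 1), CARS2 (THZ1 3), EARS2 (THZ1 2) and SARS2 (DMSO 2) in Panc327 and for AARS in SUIT2 (DMSO 1).

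In SUIT2 the rises went to 1, and the cytosolic ones to 0 as QARS lost its call, with RLE factors, library size alone, no filter, DESeq2, the compared groups alone and the replicate block (adjusted p 0.0502 to 0.0917); 2 of 20 cytosolic genes were higher at an unadjusted p under 0.05 in each of these fits. Leaving out 1 library gave 1 to 2 rises (cytosolic 0 to 1), 0 to 1 falls (cytosolic 0 to 1, mitochondrial 0 to 1) and a mitochondrial median of -0.0083 to 0.038.

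Same-numbered libraries of a line did not deviate together (correlations -0.14 to 0.06, 0 of 9 over 0.1, and 8 of 18 libraries correlated best with their own number). In SUIT2, DMSO library 1 with THZ1 library 2 had 0.12, and DMSO library 2 with THZ1 library 1 had 0.13. Such correlations cannot tell whether libraries shared a culture or batch. With the replicate block BxPC3 had 17 rises and 15 falls, Panc327 13 and 13, and FARSB in BxPC3 and MARS in Panc327 also lost their calls. Depth limits PARS2 most, with 5 counts in Panc327 with THZ1. The cause of these changes was not tested.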
